A study of Mus musculus with 221 samples.

Results

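The mitochondrial ribosomal RNAs are 2 genes, mt-Rnr1 (the 12S rRNA) and mt-Rnr2 (the 16S rRNA), of 37 genes on the mitochondrial chromosome and 55291 genes in the count table. They were selected on measured values, as the RNA class whose summed level differed most between the diets, so every difference between the diets in their levels, their ratio and their ratio to mitochondrial mRNA is given here as a description without a test. The tests below concern what that choice did not use, which is how the members varied among embryos of the same diet and how the nuclear genes that make, process or bind the rRNAs behaved.

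The libraries are single early 2-cell embryos with C57BL/6N nuclear DNA and Staudach (ST) mitochondrial DNA. They were made by in vitro fertilization of oocytes from unexposed, superovulated C57BL/6N-mtST females with frozen and thawed sperm of C57BL/6N males, fed either high-fat food (the HFD group) or a low-fat control food (the LFD group) for 2 weeks from 6 weeks of age. The LFD group holds 99 embryos and the HFD group 23 more, no sample is a sperm or an oocyte, and each mean and SD by diet below is over all embryos of that diet. Sperm came from 4 males per diet, with other males on each date, and the labels tie no embryo to its father, its fertilization date or its sex, so embryos that share a father cannot be separated and p-values treat every embryo as independent. Total counts per embryo lay between 2296020 and 13155271 for HFD and between 1937251 and 17246791 for LFD, and the maternal transcript markers in the table (9 of 10 listed) and the 2-cell markers (13 of 13) were at about the same summed level under both diets (12.65 and 12.66 log2 CPM for maternal, 10.83 and 10.79 for 2-cell markers). The summed level of 10 macrophage markers reached 11.35 log2 CPM in HFD but 6.06 in LFD embryos. Above the highest LFD embryo lay 12 HFD embryos. The medians of this level were close, 5.21 for HFD against 5.27 for LFD, with 44.3% of HFD embryos above the LFD median. The marker C1qc had counts in 10 HFD but 0 LFD embryos, while Cd68, C1qb and Csf1r had counts in most embryos of both diets. The differences between the diets are also given without these 12 HFD embryos.

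Mitochondrial DNA is transcribed as long precursors, and the flanking tRNAs are cut out to free the RNAs in between. The 12S rRNA becomes part of the small subunit and the 16S rRNA part of the large subunit of the mitochondrial ribosome, whose proteins are all made from nuclear genes. For cultured cells a shorter transcription unit that ends after the 16S gene has been proposed to yield far more rRNA than mRNA. The oocyte supplies the mitochondria of the early embryo.

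In the annotation of the files (GRCm38, mitochondrial chromosome MT, forward strand), mt-Rnr1 spans positions 70 to 1024 (955 bases) and mt-Rnr2 positions 1094 to 2675 (1582 bases), both as single-exon rRNA genes. The tRNA genes mt-Tf (1 to 68), mt-Tv (1025 to 1093) and mt-Tl1 (2676 to 2750) border them, and mt-Nd1 (2751 to 3707), a subunit gene of respiratory complex I, follows. The Smart-seq2 method primes cDNA from runs of A with an oligo(dT) primer, and the stretches of the rRNAs richest in A are therefore shown, from the GENCODE vM21 transcripts of GRCm38. These hold the C57BL/6J mitochondrial sequence, which is not the Staudach sequence of the embryos. mt-Rnr2 holds 4 runs of 6 or more A, at bases 361, 395, 463 and 1177 of the gene, which are in capitals.
mt-Rnr2, first run: agctggttacccAAAAAAtgaatttaagtt
mt-Rnr2, second run: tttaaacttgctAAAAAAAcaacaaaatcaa
mt-Rnr2, the third run: cttctggaacggAAAAAAcctttaatagtg
mt-Rnr2, the fourth run: acctcggagaatAAAAAAtcctccgaatga
mt-Rnr1 holds no run of 6 A, and its longest run is 5 bases. Its stretch richest in A has 15 A in 20 bases, from base 656 on, and lies within bases 636 to 695 shown here (MT 705 to 764).
mt-Rnr1, stretch richest in A: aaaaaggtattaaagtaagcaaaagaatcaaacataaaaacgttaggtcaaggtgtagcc

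By composition the rRNAs are alike, with 37.8% A in mt-Rnr1 and 38.2% in mt-Rnr2. The motif AAAAAA, searched on the transcript strand, was present in 26.6% of the 5211 transcripts within 5% of the length of mt-Rnr1, and in 44.6% of the 3828 of like length to mt-Rnr2. On the opposite strand, as TTTTTT, it was in neither rRNA, and in 27.4% and 41.98% of these transcripts. The 3′ ends of the mature rRNAs are shown because a short tail added there would be the other place for the primer to anneal.
mt-Rnr1, last 60 bases: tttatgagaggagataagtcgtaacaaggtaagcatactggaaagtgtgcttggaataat
mt-Rnr2, last 60 bases: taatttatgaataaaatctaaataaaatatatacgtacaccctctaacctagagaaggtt
Where on the rRNAs the primer annealed was not tested, since the files hold one count per gene.

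Both members were counted in every embryo. The mt-Rnr1 count was lowest at 1083, had a median of 4501 and reached 32785 in HFD embryos, and ran from 673 through a median of 2816 to 16555 in LFD embryos. For mt-Rnr2 the HFD embryos spanned 8924 to 127304 (median 36059.5) and the LFD embryos 4903 to 77975 (median 23128). With a lowest count of 673, counting error is small beside the spread among embryos.

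Levels were expressed as log2(CPM + 0.5), where CPM is the count scaled to 1000000 counts of the embryo. The mt-Rnr1 level was 9.66 ± 0.76 (SD) in HFD and 9.01 ± 0.76 (SD) in LFD embryos, a difference of 0.65 on the log2 scale, or 1.57-fold. It ran from 7.65 through a median of 9.60 to 12.64 in HFD embryos, and from 6.95 through 8.98 to 11.68 in LFD embryos. The groups overlapped over nearly their whole range, with 85.2% of HFD embryos above the LFD median but 2 above the highest LFD embryo.

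The mt-Rnr2 level was 12.58 ± 0.54 (SD) in HFD and 12.06 ± 0.70 (SD) in LFD embryos, a difference of 0.53, or 1.44-fold. It ran from 10.69 through a median of 12.56 to 14.60 in HFD embryos, and from 9.82 through 12.06 to 13.92 in LFD embryos. Of the HFD embryos, 89.3% lay above the LFD median, and 2 embryos above the highest LFD embryo.

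Summed over both genes, the mt-rRNA level was 12.77 ± 0.56 (SD) and 12.23 ± 0.70 (SD), a difference of 0.54, which is below 1 SD of either group. The groups were furthest apart at their low ends, where the tenth percentiles differed by 0.81, and closer at their high ends, where the ninetieth percentiles differed by 0.30. The mt-rRNAs made up 0.757% ± 0.376 (SD) of all counts in HFD and 0.540% ± 0.299 (SD) in LFD embryos. Since a library holds one whole embryo and counts are relative, fewer mitochondria and less rRNA per mitochondrion cannot be told apart.

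**Figure D1:**
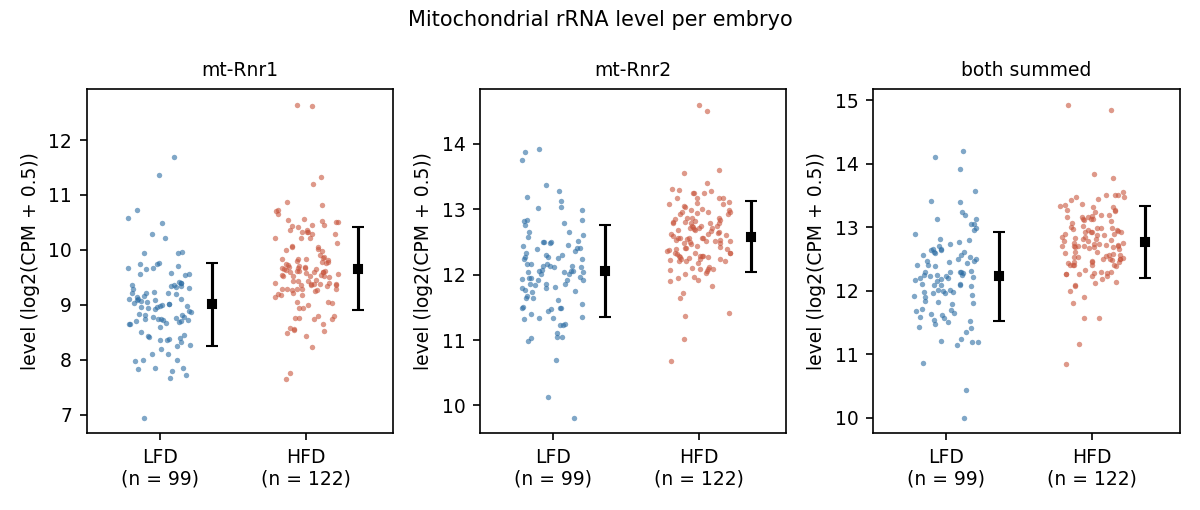
Levels of mt-Rnr1, mt-Rnr2 and both summed in each embryo, as log2(CPM + 0.5), by diet, where each point is an embryo and squares with bars are the mean and SD. HFD means are higher by 0.65, 0.53 and 0.54, and the points of both diets cover nearly the same range.

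The tRNA genes that border the rRNAs hold almost no counts. The mt-Tf count had a median of 4 in HFD and 2 in LFD embryos and was 0 in 29 HFD and 36 LFD embryos. For mt-Tv, between the rRNA genes, the medians were 2 and 0, with 57 and 56 embryos at 0. The mt-Tl1 medians were 4 and 2, with 26 and 22 embryos at 0. These genes are shorter than the sequenced fragments and reads that cross a gene border are dropped from the table, so the counts give no measure of how much rRNA was still joined to its tRNA. The mt-Nd1 level, past the tRNA, was 12.51 ± 0.50 (SD) in HFD and 12.16 ± 0.59 (SD) in LFD embryos, a difference of 0.35.

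Per kilobase of gene, on the scale of log2 CPM per kilobase, mt-Rnr2 was the sixth highest of the 15 rRNA and mRNA genes of the mitochondrial chromosome and mt-Rnr1 the fourteenth. Over all embryos the mean of mt-Rnr2 was 11.69 ± 0.67 (SD). It lay below mt-Co3, a subunit of cytochrome c oxidase, by 0.55 (SD of the difference 0.50, mt-Co3 higher in 85.1% of embryos) and above mt-Co2, another subunit of that enzyme, by 0.29 (SD 0.44, higher in 72.4%), and the latter neighbours do not differ beyond their spread. The mean of mt-Rnr1 was 9.43 ± 0.83 (SD), below mt-Nd2 of complex I by 0.62 (SD 0.60, mt-Nd2 higher in 84.6% of embryos) and above mt-Nd6, the only mRNA gene of the light strand, by 1.52 (SD 0.74, higher in 99.1%). The top of the order was mt-Atp6 (13.36), a subunit of ATP synthase, then mt-Cytb (12.86) of complex III, mt-Nd1 (12.42), mt-Co1 (12.26) and mt-Co3 (12.23). In these libraries mt-Rnr2 lay below 5 and mt-Rnr1 below 13 of the other genes, and what part oligo(dT) capture has in this order was not tested.

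**Figure D2:**
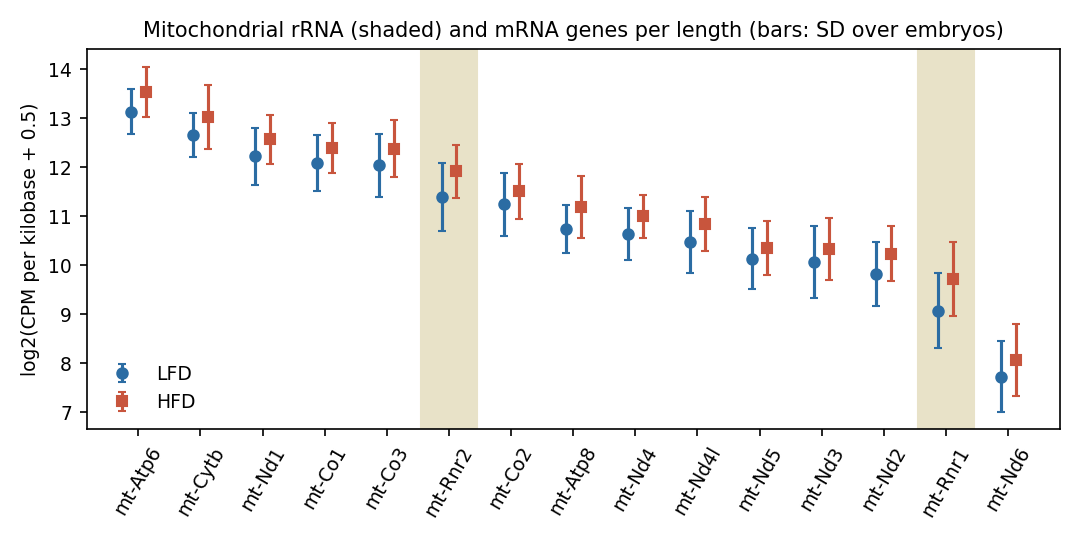
Mean log2(CPM per kilobase + 0.5) of the 2 mitochondrial rRNA genes (shaded) and 13 mRNA genes, with SD over embryos, for LFD (circles) and HFD (squares) embryos. The genes are ordered from mt-Atp6 (13.36) to mt-Nd6 (7.91), with mt-Rnr2 sixth (11.69) and mt-Rnr1 fourteenth (9.43).

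The RNA classes of the mitochondrion differed between the diets in the same direction and by unequal amounts. The mt-mRNA level, summed over 13 genes, was 15.53 ± 0.47 (SD) in HFD and 15.17 ± 0.48 (SD) in LFD embryos, a difference of 0.36. The mt-tRNA level differed by 0.37 (9.03 ± 0.52 against 8.66 ± 0.54, SD). Neither class reached the 0.54 of the rRNAs. The mt-tRNA level is mostly that of mt-Ts1, which differed by 0.30. The mt-Ts1 gene lies on the reverse strand (6870 to 6938), and mt-Co1 on the forward strand ends at 6872. Its median count was 2204.5 in HFD and 1836 in LFD embryos. Smart-seq2 cDNA keeps no strand, and whether these counts come from the tRNA or from RNA of the other strand was not tested. Among the other tRNA genes, mt-Tm differed by 0.82, more than mt-Rnr1, and mt-Tq by 0.60, more than mt-Rnr2.

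The mt-rRNA count was 15.4% ± 4.32 (SD) of the mt-mRNA count in HFD and 13.7% ± 4.68 (SD) in LFD embryos. The percentage ran from 7.29 through a median of 14.9 to 26.2 in HFD embryos and from 6.26 through 12.8 to 36.95 in LFD embryos, so the highest value belonged to an LFD embryo. On the log2 scale the ratio was -2.76 ± 0.41 (SD) and -2.95 ± 0.45 (SD), and the difference of 0.19, a fold of 1.14, is below the SD of either group. Of the HFD embryos 80 lay above and 42 below the LFD median. Taken gene by gene the log2 ratio to mt-mRNA differed by 0.30 for mt-Rnr1 and by 0.17 for mt-Rnr2.

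The 2 rRNAs did not differ between the diets by the same factor. The log2 ratio of mt-Rnr2 to mt-Rnr1 counts was 2.92 ± 0.39 (SD) in HFD and 3.05 ± 0.29 (SD) in LFD embryos, a difference of -0.13. In counts, mt-Rnr2 was 7.86 ± 2.09 (SD) times mt-Rnr1 in HFD embryos and 8.45 ± 1.67 (SD) times in LFD embryos. Per kilobase the log2 ratio was 2.20 and 2.32. Although both rRNAs come from the same precursor and are used in equal number in the ribosome, they were far from equal in these libraries. The lowest log2 ratio was 1.89, in HFD embryo 42, and the highest 3.76, in HFD embryo 68, while LFD embryos ran from 2.16 to 3.76. Of the HFD embryos 78 lay below and 44 above the LFD median.

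**Figure D3:**
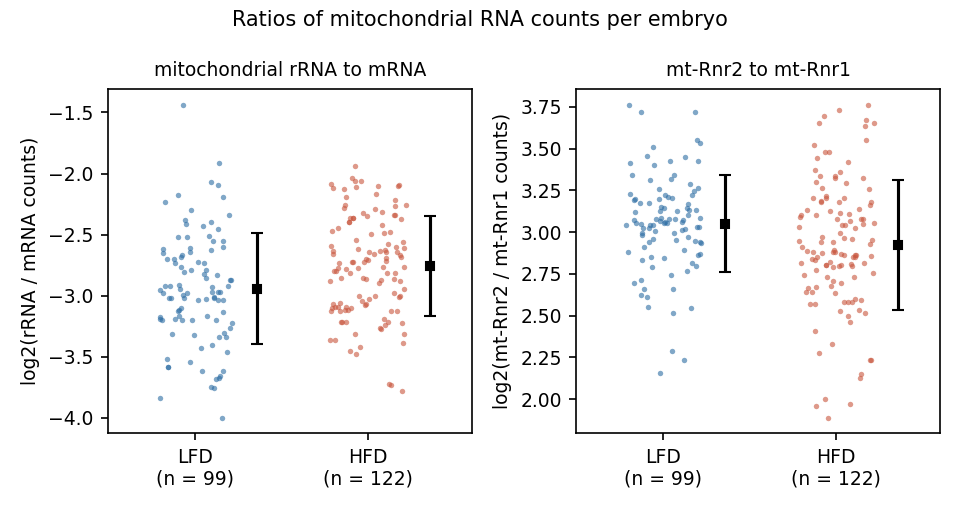
Log2 ratio of mitochondrial rRNA to mRNA counts (left) and of mt-Rnr2 to mt-Rnr1 counts (right) in each embryo by diet, with mean and SD. HFD embryos are higher by 0.19 in the first and lower by 0.13 in the second, and in both panels the diets overlap over nearly their whole range.

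Embryos carry numbers in their labels, and levels were compared across ranges of these numbers. In ranges of 10 numbers, of which 11 hold both diets, the mean mt-rRNA level was higher in HFD embryos in 10 ranges, and the difference ran from -0.17 (numbers 71 to 80) to 1.39 (numbers 81 to 90). Of the variance of the mt-rRNA level, 12.2% lay between ranges in HFD and 32.6% in LFD embryos. Any grouping of embryos gives a share above 0. The share that random grouping gives was not computed, here or for the ratios below. The LFD means by range, over 4 to 10 embryos each, spanned 11.58 to 12.87. Such a span over small groups is not comparable with the difference between the diets. What the numbers stand for is not stated.

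The ratios were less even across the ranges. The ratio of mt-rRNA to mt-mRNA was higher in HFD embryos in 8 of 11 ranges, with differences from -0.39 to 0.90, and 30.3% (HFD) and 34.95% (LFD) of its variance lay between ranges. The ratio of mt-Rnr2 to mt-Rnr1 was lower in HFD embryos in 7 of 11 ranges, with differences from -0.40 to 0.25. The HFD embryos with numbers 31 to 70 (n = 38) had the same mt-rRNA level as the other 84 HFD embryos (12.77 in both), but a ratio to mt-mRNA of -2.96 against -2.67, a ratio of mt-Rnr2 to mt-Rnr1 of 3.14 against 2.83, and 17255 against 19063 genes detected. Averaged within ranges, the differences between the diets were 0.51 for the mt-rRNA level, 0.12 for its ratio to mt-mRNA and -0.07 for the ratio of mt-Rnr2 to mt-Rnr1. Without HFD numbers 31 to 70 the last difference was -0.23 and that of the ratio to mt-mRNA 0.28, so the size of both ratio differences depends on these embryos. Without the 12 HFD embryos high in macrophage markers the difference in mt-Rnr2 to mt-Rnr1 was -0.12, beside 0.51 for the mt-rRNA level and 0.19 for its ratio to mt-mRNA.

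**Figure D4:**
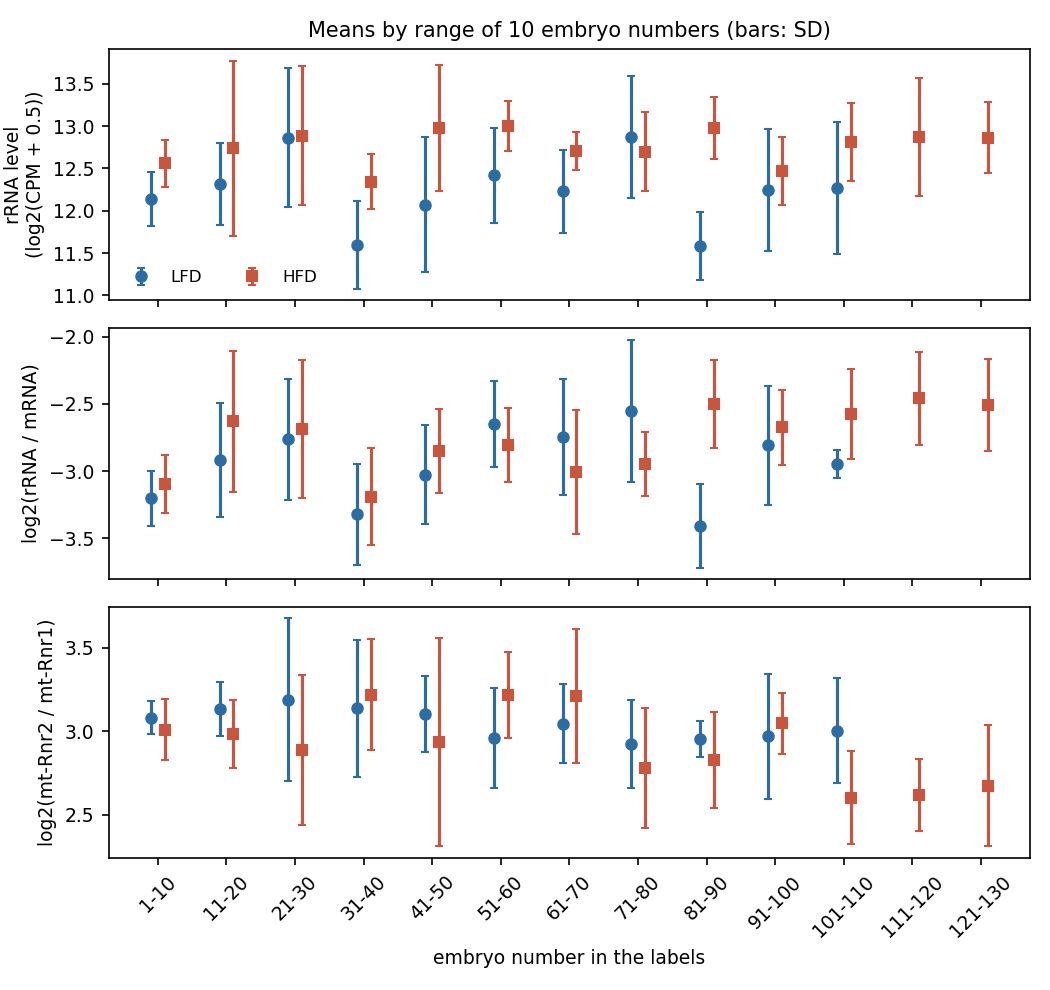
Mean mt-rRNA level (top), log2 ratio of mt-rRNA to mt-mRNA (middle) and log2 ratio of mt-Rnr2 to mt-Rnr1 (bottom) by range of 10 embryo numbers, with SD, for LFD (circles) and HFD (squares). The level is higher in HFD in 10 of the 11 ranges that hold both diets, the first ratio in 8 and the second in 4.

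Among embryos of the same diet the 2 rRNAs moved together. Pearson's r between their levels was 0.87 for HFD and 0.92 for LFD, and Spearman's rho 0.81 and 0.93 (permutation test, two-sided, adjusted p = 3.25e-05 for each, from 1e-05, the smallest p that 100000 permutations give). Without the 2 embryos farthest from the median, r was 0.84 and 0.93. The values share a denominator, the total count, and relative to nuclear counts r was 0.88 and 0.93. In all, 13 relations were computed in each diet, and adjusted p-values are Benjamini-Hochberg values over these 26.

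The mt-rRNA level also moved with the other RNA classes of the mitochondrion. With the mt-mRNA level, r was 0.70 in HFD and 0.77 in LFD embryos (rho 0.56 and 0.70, permutation test, adjusted p = 3.25e-05 for each), and 0.61 and 0.72 without the 2 farthest embryos. With the mt-tRNA level, r was 0.58 and 0.73 (rho 0.49 and 0.66, permutation test, adjusted p = 3.25e-05 for each), and 0.50 and 0.68 without the 2 farthest embryos. Most mt-tRNA counts are those of mt-Ts1, whose strand of origin is not known, and without it r was 0.38 and 0.53. Centred within ranges of 10 numbers, r with mt-mRNA was 0.76 and 0.77. No difference of r between the diets passed the test for these relations (adjusted p from 0.36 to 0.60, permutation of the diet labels, 13 differences tested).

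With the summed level of the mitochondrial ribosomal proteins, the partners of the rRNAs in the ribosome, no relation passed. Pearson's r was 0.09 in HFD and 0.17 in LFD embryos (permutation test, adjusted p = 0.377 and 0.123), rho was -0.03 and -0.10 (adjusted p = 0.826 and 0.423), and r was -0.07 and -0.12 without the 2 farthest embryos. Relative to nuclear counts, r was 0.24 and 0.30 (permutation test, adjusted p = 0.017 and 0.0096), so this relation depends on the scale. Their summed level was 11.07 ± 0.17 (SD) in HFD and 11.08 ± 0.15 (SD) in LFD embryos, a far narrower spread than that of the rRNAs.

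The ratio of mt-rRNA to mt-mRNA moved with the counts of cytosolic rRNA. The list of RNA without a poly(A) tail had 6 of 11 genes in the table, and CT010467.1, an rRNA gene on chromosome 17 (39846353 to 39848201, forward strand), held nearly all its counts and 5.17% of all counts of the table. The level of this list was 15.37 ± 1.11 (SD) in HFD and 15.12 ± 1.32 (SD) in LFD embryos. Its r with the ratio was 0.57 and 0.55 (rho 0.63 and 0.68, permutation test, adjusted p = 3.25e-05 for each), 0.57 and 0.65 without the 2 farthest embryos, and 0.41 and 0.46 within ranges of 10 numbers. Cytosolic rRNA sequences are repeated in the genome, so this count holds only reads that the authors' counting gave to this copy. What part the capture of RNA without a long poly(A) tail has in the ratio was not tested.

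**Figure D5:**
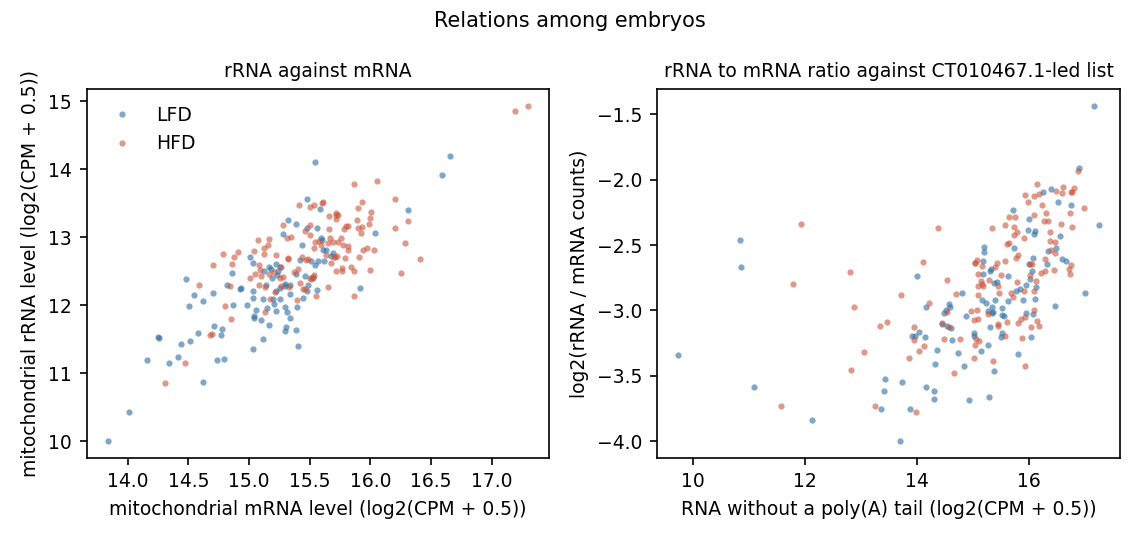
Left, mitochondrial rRNA level against mitochondrial mRNA level, and right, log2 ratio of rRNA to mRNA counts against the level of RNA without a poly(A) tail (CT010467.1), in LFD and HFD embryos. In both panels the embryos of each diet rise together, with r of 0.70 (HFD) and 0.77 (LFD) on the left and 0.57 and 0.55 on the right.

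The ratio of mt-rRNA to mt-mRNA rose with the number of genes detected (r 0.29 in HFD and 0.27 in LFD embryos, rho 0.31 and 0.26, permutation test, adjusted p = 0.00321 and 0.0160, and for rho 0.00159 and 0.0171), with r of 0.39 and 0.27 without the 2 farthest embryos. It fell with the ratio of 2-cell to maternal transcripts (r -0.24 and -0.30, rho -0.26 and -0.32, permutation test, adjusted p = 0.0178 and 0.00653, and for rho 0.00960 and 0.00281), with r of -0.20 and -0.30 without the 2 farthest embryos. Within ranges of 10 numbers r with genes detected was 0.16 and 0.20 (permutation test, adjusted p = 0.14 and 0.10) and no longer passed, and r with the 2-cell to maternal ratio was -0.17 in HFD (adjusted p = 0.11) and -0.36 in LFD embryos (adjusted p = 0.00058). With total counts it had r of 0.19 and -0.12, neither of which passed (permutation test, adjusted p = 0.0577 and 0.297, rho 0.18 and -0.12 with adjusted p = 0.0686 and 0.342), and without the 2 farthest embryos r was 0.27 and -0.09.

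For the mt-rRNA level itself, r with total counts was -0.00 in HFD and -0.19 in LFD embryos (rho 0.04 and -0.09, permutation test, adjusted p = 0.966 and 0.0984, and for rho 0.744 and 0.454) and 0.01 and -0.06 without the 2 farthest embryos. With genes detected r was -0.13 and 0.23 (rho 0.00 and 0.32, permutation test, adjusted p = 0.212 and 0.0432, and for rho 0.976 and 0.00303) and 0.05 and 0.23 without the 2 farthest embryos, and with the 2-cell to maternal ratio it was -0.03 and -0.22 (rho 0.02 and -0.23, permutation test, adjusted p = 0.803 and 0.0577, and for rho 0.826 and 0.0392) and 0.15 and -0.28 without them. The ratio of mt-Rnr2 to mt-Rnr1 had r of -0.15 and 0.12 with total counts (rho -0.22 and 0.09, permutation test, adjusted p = 0.146 and 0.297, and for rho 0.0290 and 0.454) and of -0.07 and 0.09 without the 2 farthest embryos. With genes detected r was -0.04 and 0.23 (rho -0.23 and 0.09, permutation test, adjusted p = 0.696 and 0.0423, and for rho 0.0226 and 0.454), and -0.28 and 0.11 without the 2 farthest embryos, so the relation in LFD rests on those embryos.

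The genes whose levels were most like those of the members were named by Pearson's r of log2(CPM + 1) centred within diet, over all embryos, as a description. The gene most like mt-Rnr1 was mt-Rnr2 (r 0.89). Among 18 other mitochondrial genes of sufficient level, mt-Co2 was most like both members (0.71 with mt-Rnr1 and 0.77 with mt-Rnr2) and mt-Tq least (0.20 and 0.33). Of 9202 nuclear genes, the 5 most like mt-Rnr1 were Snrpg (0.52), a core protein of spliceosomal particles, Ubl5 (0.50), a ubiquitin-like protein, Smco4 (0.50), Npm3 (0.49), a nucleolar histone chaperone, and Dbi (0.49), which binds acyl-CoA. For mt-Rnr2 they were Snrpg (0.56), Eloc (0.54), an elongin subunit, Ubl5 (0.54), Dbi (0.49) and Mt1 (0.48), a metallothionein. At the other end stood Ciapin1 (-0.66 with mt-Rnr1 and -0.67 with mt-Rnr2), an iron-sulfur cluster factor, Tmbim6 (-0.61 and -0.63), an endoplasmic reticulum membrane protein, and 4931403E22Rik (-0.62 and -0.62), followed by Gm8801 (-0.60) and 4930414N06Rik (-0.60) for mt-Rnr1, and by Arntl (-0.59), a circadian transcription factor, and Gm45355 (-0.58) for mt-Rnr2. The median r over the nuclear genes was -0.08 and -0.06.

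In edgeR's quasi-likelihood test, the level of a gene was fitted on the mt-rRNA level centred within diet, with diet as a covariate, and the slope is the log2 change of the gene per doubling of mt-rRNA. All 13 mt-mRNA genes had positive slopes that passed (FDR under 0.05), from 0.52 to 0.82, and so did the 10 mt-tRNA genes tested, from 0.43 to 0.79. The slope of mt-Nd1, just past the rRNAs, was 0.60 ± 0.05 (SE, adjusted p = 6.35e-27), and mt-Co2 had the smallest p, with 0.80 ± 0.04 (SE, adjusted p = 1.15e-49). All these slopes were under 1. The slope of CT010467.1 was 0.89 ± 0.11 (SE, adjusted p = 9.39e-12).

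The background of this test is wide. Of 14818 genes, 14.3% had a positive and 11.6% a negative slope on the mt-rRNA level. In LFD embryos alone 2501 genes and in HFD embryos alone 1380 genes were called, and 794 genes in both, 31.7% of the LFD and 57.5% of the HFD calls, of which 793 had the same sign. Among nuclear genes of at least 3 log2 CPM, the median exonic length of the gene models was 2982 bases for the 1652 genes with a positive slope, 4997 bases for the 1586 with a negative slope and 4346 bases for all 9698.

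For the nuclear genes of the rRNA pathway, 6 lists were taken, and 77 ribosomal protein genes and 55 genes of the other 5 lists passed the filter on low counts. Of all these, 28 had a positive slope on the mt-rRNA level and 9 a negative one, 21.2% and 6.82%. Mitochondrial ribosomal proteins made up most of it, with 25 of 77 tested genes positive and 4 negative. These are 32.5% and 5.19%, beside 14.3% and 11.6% over all genes. Their median slope was 0.13 beside 0.02 over all genes, and their median exonic length 2494 bases. The 4 with the smallest p were Mrps26 (0.35 ± 0.06 SE, adjusted p = 3.66e-07), Mrpl34 (0.36 ± 0.06 SE, adjusted p = 6.69e-07), Mrps14 (0.21 ± 0.04 SE, adjusted p = 7.31e-05) and Mrpl28 (0.42 ± 0.10 SE, adjusted p = 0.000244), of which S proteins belong to the small and L proteins to the large subunit. With edgeR on each diet alone, Mrps26 and Mrpl34 passed in both. Mrps14 did not pass in LFD (0.12, adjusted p = 0.169) nor Mrpl28 in HFD embryos (0.34, adjusted p = 0.143).

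In the other 5 lists 3 of 55 genes had a positive and 5 a negative slope that passed, 5.45% and 9.09% beside 14.3% and 11.6% over all genes. None of the genes named from these lists passed in HFD embryos alone, while Angel2, Nsun4, Lonp1, Gtpbp10, Mtpap and Twnk passed in LFD embryos alone, and no test compared these slopes between the diets. No gene of mitochondrial transcription passed of 8 tested, and the smallest p belonged to Twnk, the replicative helicase (0.22 ± 0.09 SE, adjusted p = 0.0569), and Mterf4, which acts in assembly of the large subunit (-0.22 ± 0.13 SE, adjusted p = 0.222). Of 10 genes for release from the precursor, Angel2 fell with the mt-rRNA level (-0.16 ± 0.04 SE, adjusted p = 0.000209) and Ptcd1, which binds leucine tRNA precursors, rose (0.16 ± 0.05 SE, adjusted p = 0.00787). Of 14 genes for rRNA modification, Nsun4, a methyltransferase of the 12S rRNA, fell (-0.15 ± 0.04 SE, adjusted p = 0.00119), and Tfb1m, which methylates adenines near the 3′ end of the 12S rRNA, rose (0.29 ± 0.10 SE, adjusted p = 0.0176). Of 14 assembly genes, the protease gene Lonp1 (-0.29 ± 0.09 SE, adjusted p = 0.00549) and the GTPase gene Gtpbp10 (-0.21 ± 0.08 SE, adjusted p = 0.0380) fell and the protease gene Clpp rose (0.43 ± 0.16 SE, adjusted p = 0.0350). Of 9 genes for tailing and decay, Mtpap, the mitochondrial poly(A) polymerase, fell (-0.21 ± 0.06 SE, adjusted p = 0.00660).

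In the same test on the log2 ratio of mt-rRNA to mt-mRNA, 9.26% of 14805 genes passed, 4.94% upwards and 4.32% downwards. In HFD embryos alone 492 genes and in LFD embryos alone 423 genes were called, and the genes called in both were 32.7% and 38.1% of these, all with the same sign. CT010467.1 had the largest slope among nuclear genes of at least 3 log2 CPM, 1.52 ± 0.13 (SE, adjusted p = 1.14e-19), with 1.45 in HFD and 1.59 in LFD embryos alone. It was followed by Smco4 (1.38 ± 0.20 SE, adjusted p = 7.02e-08), Gm12641 (1.14 ± 0.20 SE, adjusted p = 9.28e-06), Npm3 (1.13 ± 0.17 SE, adjusted p = 8.03e-08) and Gm45593 (1.06 ± 0.23 SE, adjusted p = 0.000281). The smallest slopes were those of Zfp622 (-1.31 ± 0.17 SE, adjusted p = 5.49e-10), a zinc finger factor of the cytosolic large ribosomal subunit, Gm10800 (-1.16 ± 0.31 SE), Gm42929 (-1.05 ± 0.25 SE), Wrnip1 (-1.05 ± 0.21 SE), a DNA repair protein, and Gm40309 (-0.98 ± 0.24 SE), with adjusted p from 9.62e-05 to 0.00518 for the last 4. Loci named Gm can share reads with near copies, and their counts are uncertain.

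Of the 77 ribosomal protein and 55 other pathway genes tested, 2 had a positive slope on this ratio that passed and 1 a negative one, 1.52% and 0.758% beside 4.94% and 4.32% over all genes. Angel2 fell (-0.35 ± 0.05 SE, adjusted p = 3.52e-08) and did so in HFD embryos alone (-0.40) and LFD embryos alone (-0.30), and of the 3 it alone passed in each diet alone. Elac2, the nuclease that cuts the 3′ side of mitochondrial tRNAs, rose (0.38 ± 0.11 SE, adjusted p = 0.0178), and Mrps6 rose (0.47 ± 0.12 SE, adjusted p = 0.00301). In the lists without a call the smallest p belonged to Tfb2m (-0.10 ± 0.06 SE, adjusted p = 0.373) and Mterf2 (-0.21 ± 0.20 SE, adjusted p = 0.611) for transcription, Fastkd2 (-0.29 ± 0.10 SE, adjusted p = 0.061), which binds the 16S rRNA, and Tfb1m (0.35 ± 0.14 SE, adjusted p = 0.121) for modification, Fastkd1 (-0.11 ± 0.06 SE, adjusted p = 0.272) and Gtpbp6 (-0.35 ± 0.20 SE, adjusted p = 0.317) for assembly, and Pde12 (-0.15 ± 0.10 SE, adjusted p = 0.448) and Slirp (-0.08 ± 0.07 SE, adjusted p = 0.535) for tailing and decay. Of the 10 mt-tRNA genes tested only mt-Tg passed (0.64 ± 0.21 SE, adjusted p = 0.0370). The mt-Tg count had a median of 8 in both diets and was 0 in 6 HFD and 7 LFD embryos, so this call rests on few counts. Among 2-cell transcripts, whose copies share reads within their families, 7 of 13 fell and 1 rose, and among 9 maternal transcripts 1 rose and none fell.

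Between the diets, the pathway genes were called at about the share of all genes. Of 14820 genes 2.15% were called, 1.26% higher and 0.891% lower in HFD embryos (edgeR, FDR under 0.05), and of the 77 ribosomal protein and 55 other pathway genes tested 1 was higher and 1 lower, 0.758% each. Angel2 was higher (log2 fold change 0.16 ± 0.05 SE, adjusted p = 0.0477), at 10.15 ± 0.37 (SD) in HFD and 10.03 ± 0.32 (SD) log2 CPM in LFD embryos, which is the opposite direction to its slope on the mt-rRNA level within a diet. The adjusted p is close to the threshold, and the call was lost at nearly the same fold change with DESeq2 size factors (0.16) and without the 12 HFD embryos high in macrophage markers (0.14), and at a smaller one without HFD numbers 31 to 70 (0.06). Mrpl48 was lower (-0.19 ± 0.05 SE, adjusted p = 0.0173), at 6.86 ± 0.35 (SD) against 7.09 ± 0.35 (SD) log2 CPM, and lost the call without HFD numbers 31 to 70 (-0.12) and without the tenth of embryos with the fewest genes (-0.14).

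No gene passed in the other 4 lists. Polrmt, the mitochondrial RNA polymerase, had a log2 fold change of -0.21 ± 0.11 (SE, adjusted p = 0.408) and Twnk of -0.16 ± 0.11 (SE, adjusted p = 0.574). The values with the smallest p in the lists for modification, assembly, and tailing and decay were those of Trmt61b (0.37 ± 0.17 SE, adjusted p = 0.279), Mettl17 (0.16 ± 0.08 SE, adjusted p = 0.349), Malsu1 (0.14 ± 0.06 SE, adjusted p = 0.197), Ybey (0.26 ± 0.18 SE, adjusted p = 0.566), Rexo2 (0.14 ± 0.06 SE, adjusted p = 0.219) and Fastk (-0.27 ± 0.13 SE, adjusted p = 0.355). The mitochondrial ribosomal proteins had a median log2 fold change of 0.05, beside 0.01 over all genes. CT010467.1 had a log2 fold change of 0.20 ± 0.14 (SE, adjusted p = 0.590). In the same fit, as a description, the log2 fold changes of the members were 0.73 ± 0.12 (SE) for mt-Rnr1 and 0.51 ± 0.09 (SE) for mt-Rnr2. Those of the 13 mt-mRNA genes ran from 0.23 to 0.57, and those of the 10 mt-tRNA genes tested from 0.10 to 1.02.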

How the data were processed

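The deposited file is a table of raw counts per gene for 221 single embryos. Per the file headers and the submitters' processing notes, the authors trimmed paired reads (Trim Galore 0.6.6), aligned them with STAR 2.7.10a to GRCm38 with the mitochondrial sequence replaced by that of Staudach, and counted exonic reads by gene name with featureCounts (quality reports with MultiQC 1.11). The counting was set for reverse-stranded libraries, while Smart-seq2 cDNA keeps no strand, and counted reads that fit one gene only, so reads shared with nuclear copies of mitochondrial DNA or crossing a gene border are missing. Which strand of the mitochondrial DNA a counted read stood for is therefore not known.

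Levels were log2(CPM + 0.5), with summed counts for lists. Genes were tested with edgeR 4.0.16 (TMM, filterByExpr, quasi-likelihood F test, Benjamini-Hochberg FDR under 0.05) on all embryos, with R 4.3.3. DESeq2 1.42.0 and limma-voom 3.58.1 served as alternatives. Correlations were computed within each diet with 100000 permutations. Scripts were tested on simulated data. Of the 50 most similar pairs of embryos none agreed within sampling noise (lowest chi-square per degree of freedom 14.0). Named genes were the members, their neighbours, the 5 nuclear genes most and least like each member, up to 4 called genes with the smallest p in each list and test (else 2), and the 5 largest and smallest called slopes on the ratio. The members and lists were chosen with earlier results of these data known. Same embryo numbers in both diets share only the number. P-values measure the spread among embryos, whose fathers and dates are not in the labels.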

Additional observations from a re-analysis of the deposited data

Results flagged for a closer look

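Within HFD embryos the log2 ratio of mt-rRNA to mt-mRNA had r = 0.19 with log2 total counts, and within LFD embryos r = -0.12. The difference of r, 0.31, had p = 0.0336 when the diet labels were permuted, and an adjusted p of 0.346 over the 13 differences tested, so it does not pass the correction. Within ranges of 10 embryo numbers r was 0.08 in HFD and 0.09 in LFD embryos.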

How the results depend on the processing

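All 5 differences between the diets kept their direction under every alternative run. They are each smaller than 1 SD among embryos, and the ratio differences changed most, from -0.23 to -0.06 for mt-Rnr2 to mt-Rnr1 and from 0.10 to 0.28 for mt-rRNA to mt-mRNA. Same-numbered embryos of the 2 diets share only a number (correlation 0.00 for the mt-rRNA level over 94 numbers), and with embryo number as a replicate block the mean differences were 0.49 (mt-rRNA), 0.54 (mt-Rnr1), 0.48 (mt-Rnr2), -0.06 (mt-Rnr2 to mt-Rnr1) and 0.10 (mt-rRNA to mt-mRNA), and limma-voom called 343 genes between the diets with the block against 330 without it. The median log2 fold change of all genes was 0.01.

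Counts of called genes depended on the setting. Between the diets 318 genes became 7030 with no filter on low counts, 591 with ranges of 10 embryo numbers as covariate and 572 without the tenth of embryos with the fewest genes. Without HFD embryo numbers 31 to 70, a range that no label sets apart, 176 were called. Chosen after seeing the data, the fit without the 12 HFD embryos high in macrophage markers called 180. With the Y-linked level as covariate 276 genes were called. For the slope on the mt-rRNA level 3839 became 7268 with no filter, 1380 in HFD and 2501 in LFD embryos alone. For the slope on the ratio 1371 became 4842 with no filter, 492 in HFD and 423 in LFD embryos alone and 634 with ranges of numbers as covariate. Of the calls between the diets 58.5% were higher in HFD with TMM, 48.8% of 336 with DESeq2 size factors, 49.7% of 463 with DESeq2, 51.5% of 330 with limma-voom, 46.5% with ranges of numbers as covariate, 70.3% with no filter, 34.7% without HFD numbers 31 to 70 and 42.2% without the embryos high in macrophage markers, so which direction holds more calls depends on the setting.

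Among correlations, with nuclear counts as denominator mt-rRNA with the ribosomal protein level passed in HFD (0.24) and LFD (0.30). Within ranges of numbers mt-rRNA with genes detected in LFD (0.16), the ratio to mt-mRNA with genes detected (0.16 in HFD and 0.20 in LFD) and with the 2-cell to maternal ratio in HFD (-0.17) no longer passed, nor did mt-Rnr2 to mt-Rnr1 with genes detected in LFD (0.22), while mt-rRNA with the 2-cell to maternal ratio in LFD did (-0.26). Without the tenth of embryos with the fewest genes, the ratio to mt-mRNA with genes detected in LFD (0.21) and with the 2-cell to maternal ratio (-0.15 in HFD and -0.24 in LFD) no longer passed, while mt-Rnr2 to mt-Rnr1 in HFD passed with total counts (-0.23) and genes detected (-0.30). With genes detected the r of this ratio in HFD went from -0.04 to 0.22 within ranges and then passed (permutation test, adjusted p = 0.033). In LFD it went from 0.23 to -0.0012 without the tenth and no longer passed. The causes were not tested.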
